A study of Rattus norvegicus with 10 samples.

Results

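The ventral tegmental area (VTA) and the nucleus accumbens (NA) of the rat brain were compared on 4 of the 10 arrays of a cocaine study. The arrays were chosen by their titles alone: 1 VTA array from cocaine-treated rats, 1 VTA array from saline-treated rats, 1 NA array from cocaine-treated rats and 1 NA array from saline-treated rats. The other 6 arrays came from the caudate putamen (CPU), the amygdala (AMY) and the prefrontal cortex (PFC), again with 1 cocaine and 1 saline array a region. Each sample of total RNA was hybridised to an oligonucleotide array of 1 colour. Of strain, sex, age, dose, duration of treatment and the number of animals behind an array, the sources used here state none. Nothing says that the samples came from separate animals, so p-values measure only the spread between these samples, which may be technical. With 1 array a region and treatment, that spread is not between replicates. It is what region and treatment leave unexplained over all 5 regions, including those outside the comparison. Any response to cocaine that differs between regions is part of it.

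The VTA holds the cell bodies of the dopamine neurons whose axons form the mesolimbic projection, and the NA in the ventral striatum is its main target. In the NA the axons meet medium spiny projection neurons, which use GABA, carry D1 or D2 dopamine receptors and make the peptide precursors Tac1 and Pdyn or Penk. An axon releases dopamine far from the nucleus that transcribes the genes of dopamine synthesis, so transcripts of the enzymes lie mainly at the origin and those of the receptors at the target. Cocaine blocks the dopamine transporter and so prolongs dopamine signals in the target. A piece of tissue also holds glia and other neurons, and in such bulk samples fewer cells of a type and less RNA per cell cannot be told apart.

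Stretches upstream of the start of 3 genes named below are shown because each holds the palindromic cyclic AMP response element TGACGTCA, the site of CREB family factors, in capitals. Th and Scg2 were higher in the VTA, and Cartpt was a peptide precursor well above the array median in both regions. The stretches hold the 250 bases before the annotated start, 5′ to 3′ on the strand of the gene, from RefSeq on the GRCr8 assembly. They lie at chr1:207508219-207508468 for Th, chr9:88256867-88257116 for Scg2 and chr2:32991236-32991485 for Cartpt, all on the minus strand.
Th: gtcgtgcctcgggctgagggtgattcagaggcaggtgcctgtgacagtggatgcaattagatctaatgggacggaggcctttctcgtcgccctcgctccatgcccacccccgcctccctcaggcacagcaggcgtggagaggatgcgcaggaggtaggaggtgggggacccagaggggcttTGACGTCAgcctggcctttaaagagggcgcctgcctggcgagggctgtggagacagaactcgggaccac
Scg2: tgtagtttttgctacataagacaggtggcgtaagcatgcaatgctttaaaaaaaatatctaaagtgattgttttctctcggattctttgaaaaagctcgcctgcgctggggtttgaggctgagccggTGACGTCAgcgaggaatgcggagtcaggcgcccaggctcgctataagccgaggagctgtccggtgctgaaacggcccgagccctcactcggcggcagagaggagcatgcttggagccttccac
Cartpt: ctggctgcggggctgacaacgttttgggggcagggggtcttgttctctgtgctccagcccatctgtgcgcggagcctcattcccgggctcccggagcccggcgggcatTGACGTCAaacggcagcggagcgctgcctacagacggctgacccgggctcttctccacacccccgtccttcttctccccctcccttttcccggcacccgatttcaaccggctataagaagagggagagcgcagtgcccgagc
The motif began 69 bases before the start of Th, 123 bases before that of Scg2 and 142 bases before that of Cartpt. Searched on both strands, which are the same for a palindrome, the motif was in 531 of 33469 such windows, or 1.59%. Among genes past the threshold described below, it was in 3 of the 59 higher genes with a window, Mif, Scg2 and Th, and in 0 of the 64 lower genes with a window. Of the peptide precursors above the array median in both regions, 11 had a window, and Cartpt was the 1 with the motif. The 1.59% counts all windows, while these genes are counted once each among genes on the array. A match describes the letters only, and no binding was measured.

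The values are the expression index of dChip, a model-based summary of the probes of each probe set on a linear scale. The table has no detection calls, and an index of 1 probe set cannot be set against that of another. Of the 5130 probe sets tested, 4894 had a value on all 10 arrays. Across these, the log2 indices of the VTA arrays correlated with r = 0.977 and those of the NA arrays with r = 0.988. A VTA array with an NA array gave r between 0.935 and 0.950. Median indices of the 4 arrays lay between 2252 and 2310. Exact zeros, which were treated as having no value, numbered 120 on the VTA cocaine array and 40 on the VTA saline array, against 12 on the NA cocaine array and 8 on the NA saline array. A difference of at least 1.5-fold between the cocaine and the saline array of a region was seen in 85 probe sets in the VTA and in 12 in the NA, with 1 array on each side and no test. Each SD given below is taken over the cocaine and the saline array of a region (n = 2) and holds any difference between them.

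Past the threshold of an adjusted p under 0.05 in limma were 224 of the 5130 probe sets, or 4.37%. Of these, 106 (2.07%) were higher and 118 (2.3%) lower in the VTA than in the NA. A fold of at least 2 as well was reached by 81 (1.58%), of which 22 (0.429%) were higher and 59 (1.15%) lower. Both VTA arrays lay on the same side of both NA arrays in all 224, but this was so in 2515 of all 5130 tested (49%). An unadjusted p under 0.05 was reached by 757 probe sets. The number of calls changed with each of the 4 arrays: it was 64 without the VTA cocaine array, 93 without the VTA saline array, 36 without the NA cocaine array and 36 without the NA saline array. Of 59 named probe sets past the threshold, 18 stayed past it in each alternative that tested them: Calb2, Gpx3, Agt and Th on the higher side, and both tested Drd1 probe sets, Arpp21, Gda, Rasgrp1, Penk, Gnal, Pde2a, Pcp4l1, Itpr1, both Gng7 probe sets, Hpca and Nrgn on the lower side. One Drd1 probe set, 1 Gng7 probe set and Pcp4l1 were too dim to be tested when only the upper 40% by mean index was kept. Of the other 41 named calls, 16 were lost only when an array was left out and 25 in at least 1 other alternative, most often with no filter on dim probe sets or with zeros raised to the floor. Beside the other pairs of regions, which share arrays with this one, the VTA and NA differed in fewer probe sets than the VTA and PFC (576), the VTA and CPU (395), and the VTA and AMY (323), and in more than the NA and PFC (81), the NA and CPU (40) or the NA and AMY (26).

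Higher calls were mostly transcripts with their peak in the VTA. Of the 106, 101 had their highest mean of the 5 regions in the VTA, against 28.8% of all probe sets tested. The 118 lower calls had their lowest mean in the VTA in 100 cases, against 17.1% of all tested, but their highest in the NA in only 31. Their highest mean was in the CPU in 44, the PFC in 22 and the AMY in 21, so the NA was often not the peak of what it had more of than the VTA. These places share the VTA and NA arrays with the call itself and are given as a description.

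**Figure D1:**
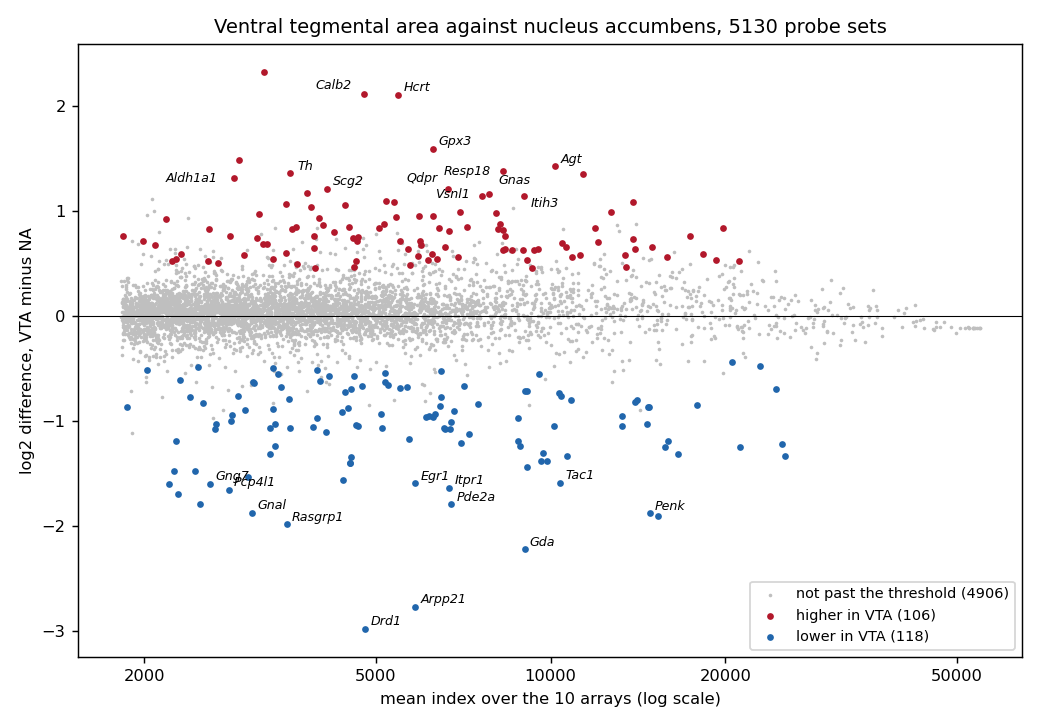
Log2 difference between the VTA and the NA for the 5130 probe sets tested (vertical axis) against the mean index over the 10 arrays (horizontal log axis). Red points are the 106 probe sets past the threshold and higher in the VTA, blue points the 118 lower ones, grey points the rest; Calb2 and Hcrt lead the named higher genes, Drd1 and Arpp21 the lower ones.

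Among genes of dopamine neurons Calb2, Th and Aldh1a1 were higher in the VTA. Th, tyrosine hydroxylase, which sets the rate of dopamine synthesis, had an index of 7544 and 6363 on the VTA cocaine and saline arrays, against 2746 and 2670 on the NA arrays in the same order. All 8 arrays outside the VTA lay between 2599 and 2884, so the VTA arrays alone stood out. The mean was 6953 ± 835 in the VTA and 2708 ± 53.3 in the NA (SD, n = 2 each), a log2 difference of 1.36 ± 0.12 (SE), or 2.56-fold, with a limma adjusted p of 0.000785. Calb2, the calcium-binding protein calretinin, was at 13498 and 12132 in the VTA, against 2948 and 2984 in the NA. Its VTA arrays did not come near those of any other region, and the difference was 4.31-fold (log2 2.11 ± 0.14, SE, adjusted p = 0.000383). Aldh1a1, a retinaldehyde dehydrogenase found in a subset of dopamine neurons, was at 6519 and 4477 in the VTA, against 2016 and 2365 in the NA, and was 2.47-fold higher (adjusted p = 0.0169). Its call was lost in 3 of the 4 fits that left out an array: the one without the VTA cocaine array and those without either NA array, where the adjusted p reached 0.213.

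Of the other genes of dopamine synthesis, storage and uptake, Ddc, Slc6a3 and Gch1 did not pass. Ddc, the decarboxylase of the second step, was at 5296 and 3809 in the VTA, against 2434 and 2817 in the NA. The VTA arrays were both above the NA arrays but far apart, with a log2 difference of 0.78 ± 0.23 (SE, adjusted p = 0.128, and 0.0208 to 0.805 over the alternatives). Slc6a3, the dopamine transporter that cocaine blocks, was at 4552 and 3268 in the VTA, against 3176 and 3046 in the NA, a log2 difference of 0.31 ± 0.16 (SE, adjusted p = 0.456). A further Slc6a3 probe set was listed at 0 on the VTA cocaine array and was not tested. Slc18a2, the vesicular monoamine transporter, had only dim probe sets that were not tested: the brighter was at 1476 and 1131 in the VTA, against 727 and 742 in the NA, where both values lie below the floor of 1028. Gch1, which makes the tetrahydrobiopterin cofactor of Th, was at 2896 and 2240 in the VTA, against 2167 and 2569 in the NA, so its arrays overlapped (log2 0.11 ± 0.31, SE). Qdpr, which regenerates that cofactor and is also abundant in oligodendrocytes, was at 13176 and 11197 in the VTA, against 5230 and 5295 in the NA, 2.31-fold higher (adjusted p = 0.0121), but its call was lost without any 1 of the 4 arrays (adjusted p up to 0.158). The transcription factors Nr4a2 and Pitx3 had log2 differences of 0.07 and 0.10 and did not pass. Of 14 tested genes of the dopamine neuron list, 3 were called higher and 0 lower, with a median log2 difference of 0.15, against 55 higher and 71 lower of 3190 genes and a median of 0.03 over all genes tested. The VTA arrays take their label from their titles. Of the dopamine neuron list only Th, Calb2 and Aldh1a1 were called, and Slc6a3 did not set the VTA apart.

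**Figure D2:**
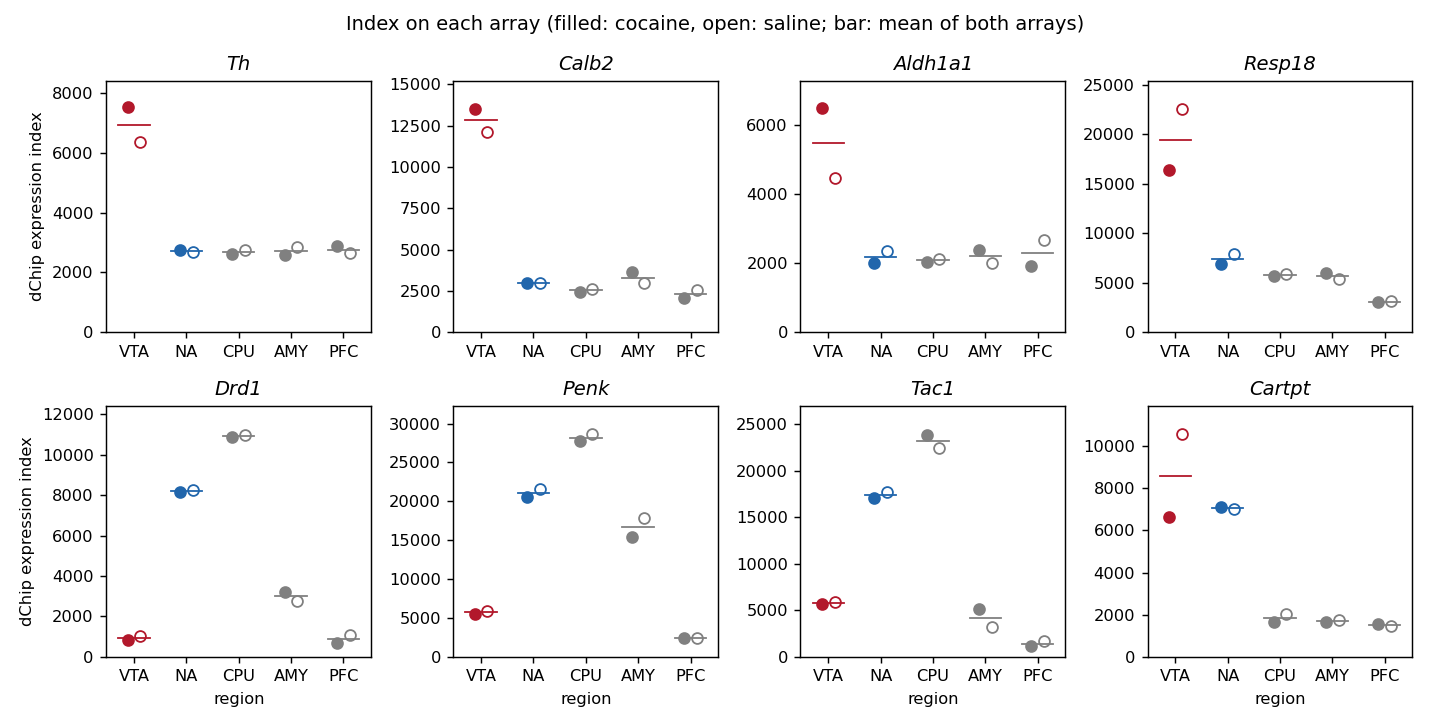
Index of 8 genes on each of the 10 arrays, by region (VTA, NA, caudate putamen CPU, amygdala AMY, prefrontal cortex PFC); filled points are cocaine arrays, open points saline arrays, and the line is the mean of both. Th, Calb2, Aldh1a1 and Resp18 stand highest in the VTA, Drd1, Penk and Tac1 are low in the VTA and highest in the CPU, and Cartpt is high in the VTA and the NA alone.

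Lower in the VTA were Drd1, the receptor on the target cells, and the peptide precursors Penk and Tac1 of striatal neurons. Drd1, the D1 dopamine receptor of direct pathway neurons, had an index of 846 and 1049 on the VTA cocaine and saline arrays, against 8166 and 8237 on the NA arrays. The VTA cocaine value lies below the floor and was raised to it, and the difference was then 7.90-fold (log2 -2.98 ± 0.11, SE, adjusted p = 1.81e-05). A further Drd1 probe set was at 1130 and 1270 in the VTA, against 3216 and 3446 in the NA (log2 -1.47, adjusted p = 0.000785). Arpp21, a phosphoprotein regulated by cyclic AMP, was at 578 and 494 in the VTA, both below the floor, against 7876 and 6260 in the NA, at least 6.83-fold lower in the VTA (adjusted p = 0.000447). Penk, the precursor of enkephalin and a marker of D2 receptor neurons, was at 5545 and 5894 in the VTA, against 20576 and 21566 in the NA, 3.68-fold lower in the VTA (log2 -1.88 ± 0.10, SE, adjusted p = 0.000136). Tac1, the precursor of substance P, was at 5670 and 5856 in the VTA, against 17045 and 17690 in the NA, 3.01-fold lower (adjusted p = 0.00895), a call that was lost without any 1 of the 4 arrays (adjusted p up to 0.131). In Drd1, Penk and Tac1 the arrays of a region lay close together and the regions far apart.

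Of the 20 tested genes of the striatal projection neuron list, 14 (70%) were called lower in the VTA, against 2.226% of all genes tested. None was called higher, and the median log2 difference of the list was -0.90. The count of lower calls ran from 7, without either NA array, to 15 over the alternatives, and was 9 without either VTA array. Pcp4l1, a relative of Pcp4, was at 1698 and 1674 in the VTA, against 5713 and 4953 in the NA, 3.16-fold lower (adjusted p = 0.000288). Ptpn5, a tyrosine phosphatase enriched in striatum, was at 5241 and 5707 in the VTA, against 13543 and 14058 in the NA (log2 -1.34, adjusted p = 0.000383). Rgs9, which shortens G protein signals at dopamine receptors, was at 2742 and 2617 in the VTA, against 6124 and 5965 in the NA (log2 -1.17, adjusted p = 0.00266, 0.0623 at most when an NA array was left out). Adora2a, the adenosine receptor of indirect pathway neurons, was at 3739 and 3269 in the VTA, against 6613 and 6902 in the NA (log2 -0.95, adjusted p = 0.00266, 0.0632 at most when an NA array was left out). Drd2, the receptor of those same neurons and also the autoreceptor of dopamine neurons, was at 2190 and 1996 in the VTA, against 3210 and 3419 in the NA. Its regions did not overlap, but its log2 difference of -0.66 ± 0.15 (SE) missed the threshold at an adjusted p of 0.0502. Drd2 passed in 9 of the 19 alternatives and not in the rest, with log2 differences from -0.76 to -0.57. Drd3, Drd4 and Drd5 had log2 differences between -0.01 and 0.06 and did not pass. Over all 10 arrays Drd4 lay between 5051 and 6220 and Drd5 between 2857 and 3321. Such a flat index does not show expression in both regions. Pdyn, the dynorphin precursor of direct pathway neurons, had 9470 and 8811 in the VTA, against 9132 and 9790 in the NA, and its arrays overlapped. On a further probe set Pdyn was at 4187 and 4199 in the VTA, against 4350 and 4655 in the NA, without overlap but far from the threshold (log2 -0.10, adjusted p = 0.847). Over all 10 arrays these Pdyn probe sets varied by only 1.2-fold and 1.24-fold, so they do not show that Pdyn is expressed in both regions.

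Other genes far lower in the VTA were not of that list. Gda, guanine deaminase, was at 2244 and 3963 in the VTA, against 13528 and 14302 in the NA, 4.66-fold lower (log2 -2.22 ± 0.19, SE, adjusted p = 0.000785). Rasgrp1, an exchange factor that activates Ras in response to diacylglycerol, was at 1353 and 1097 in the VTA, against 4104 and 5667 in the NA, 3.96-fold lower (adjusted p = 0.00120). In Gda and Rasgrp1 the NA arrays lay far above the VTA arrays, although the VTA arrays of Gda were themselves apart.

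Some genes of signalling downstream of the receptors were called, part of them already counted in the striatal projection neuron list. Gnal, the alpha subunit that couples D1 and A2a receptors to adenylyl cyclase in striatum, was at 1517 and 1428 in the VTA, against 5016 and 5826 in the NA, 3.67-fold lower (log2 -1.88 ± 0.13, SE, adjusted p = 0.000383). Gng7, the gamma subunit that partners it, was at 1321 and 1410 in the VTA, against 3941 and 4344 in the NA, 3.03-fold lower (adjusted p = 0.000447). Gnas, the stimulatory alpha subunit used by most other cells, differed by probe set. One was at 12511 and 16741 in the VTA, against 6088 and 6863 in the NA (log2 1.16, adjusted p = 0.00308, 0.0711 at most when an NA array was left out). The brightest had a log2 difference of -0.01, and 2 of 4 tested Gnas probe sets were called higher. Pde2a, a phosphodiesterase stimulated by cyclic GMP, was at 2079 and 2472 in the VTA, against 7954 and 7781 in the NA, 3.47-fold lower (adjusted p = 0.000785). Ppp1r1a, an inhibitor of protein phosphatase 1, was called lower at a log2 difference of -0.90 (with a call lost without the VTA cocaine array or either NA array, adjusted p up to 0.143), as were Adcy5, the main striatal adenylyl cyclase, at -0.55 and Pde1b at -0.67. Over all genes tested, 2.226% were called lower. Gnal, Adora2a, Pde1b and Adcy5 were already counted in the striatal projection neuron list. Of 27 tested genes of cyclic AMP signalling, 6 (22.22%) were called lower, these genes among them, and 0 higher, with a median of -0.01. The count of lower calls was 2 without either NA array, 3 without the VTA cocaine array and 4 without the VTA saline array.

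Among genes of calcium signalling other than the binding proteins, most calls were lower in the VTA. Itpr1, the inositol trisphosphate receptor, was at 2172 and 2334 in the VTA, against 6808 and 7225 in the NA, 3.11-fold lower (log2 -1.64 ± 0.10, SE, adjusted p = 0.000304), and 2 of its 3 tested probe sets were called. Prkcb, a protein kinase C, was at 3626 and 4189 in the VTA, against 10096 and 10222 in the NA, 2.61-fold lower (adjusted p = 0.00308, with a call lost without the VTA cocaine array or either NA array, up to 0.0711). Ppp3ca, the catalytic subunit of calcineurin, was 2.60-fold lower at 3564 and 5030 in the VTA, against 11224 and 10817 in the NA (adjusted p = 0.0133, with a call lost without the VTA cocaine array or either NA array, up to 0.185). Atp2b1, a calcium pump of the plasma membrane, was at 3130 and 2832 in the VTA, against 5664 and 5724 in the NA (log2 -0.94, adjusted p = 0.00386, with a call lost without either NA array, up to 0.0832). Of 27 kinases, phosphatases, pumps and phospholipases that depend on calcium, 6 (22.22%) were called lower and 1, Plcb4 (3.704%), higher, with a median of -0.25. Over all genes tested, 2.226% were called lower and 1.724% higher. Plcb4 was lost without any 1 of the 4 arrays, and the lower calls then numbered 1 without either NA array, 3 without the VTA cocaine array and 4 without the VTA saline array.

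Among the 16 tested calcium-binding proteins 3 (18.75%) were called higher and 4 (25%) lower, against 1.724% and 2.226% of all genes tested. Of the lower ones, Hpca and Pcp4 were already counted in the striatal projection neuron list. Beside Calb2, Calb1 (calbindin) was at 5811 and 8698 in the VTA, against 3196 and 3499 in the NA, 2.13-fold higher (adjusted p = 0.0260, with a call lost without any 1 of the 4 arrays, up to 0.253). Vsnl1, a neuronal calcium sensor, was at 10223 and 9975 in the VTA, against 4540 and 4652 in the NA, 2.20-fold higher (adjusted p = 0.00266, 0.0626 at most when an NA array was left out). Vsnl1 was no VTA marker, since the prefrontal arrays reached 10778 and 13096. The neuronal sensor Hpca was at 7524 and 8464 in the VTA, against 19427 and 20312 in the NA, 2.49-fold lower, and the calmodulin-binding Nrgn was 2.53-fold lower at 6768 and 7392 in the VTA, against 19091 and 16794 in the NA (adjusted p = 0.000447 and 0.000968). Pcp4, which also binds calmodulin, and Nell2 were lower as well, at log2 differences of -0.85 and -0.82. The call of Pcp4 was lost without any 1 of the 4 arrays (adjusted p up to 0.134) and that of Nell2 without the VTA cocaine array or either NA array (up to 0.0724).

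Transmitter genes of the target included Gad1, the enzyme that makes GABA. Gad1 was at 4065 and 8527 in the VTA, against 14662 and 17435 in the NA, 2.72-fold lower (adjusted p = 0.0299, with a call lost without the VTA cocaine array or either NA array, up to 0.257). Its VTA arrays lay more than 2-fold apart, with the cocaine array lower, and the log2 difference was -0.95 without the VTA cocaine array and -1.93 without the VTA saline array. Slc32a1, which loads GABA into vesicles, had a log2 difference of -0.85 and an adjusted p of 0.0581, and Gad2 one of -0.15. Gabbr2, a subunit of the GABA-B receptor, was 1.49-fold higher on 1 of 2 tested probe sets, at 6534 and 5928 in the VTA, against 4133 and 4237 in the NA (adjusted p = 0.0426, with a call lost without any 1 of the 4 arrays, up to 0.351). Over all genes tested, 1.724% were called higher and 2.226% lower. Of 20 glutamate receptor genes, 1 (5%) was called, Gria2, an AMPA receptor subunit. Gria2 was 1.71-fold lower at 4109 and 4774 in the VTA, against 7439 and 7741 in the NA (adjusted p = 0.00459). Its call was lost without the VTA cocaine array or either NA array. Of 30 vesicle genes, Cplx2, Sv2b and Cplx1 (10%) were called lower and none higher. Cplx2 was at 3100 and 3403 in the VTA, against 7146 and 6508 in the NA (adjusted p = 0.00248, with a call lost without the NA cocaine array). The calls of Sv2b and Cplx1 were lost without any 1 of the 4 arrays, with adjusted p up to 0.297 for Sv2b and 0.395 for Cplx1. Egr1, a transcription factor induced by activity, was 3.02-fold lower on its brightest called probe set, at 2246 and 2513 in the VTA, against 7186 and 7176 in the NA (adjusted p = 0.0283, with a call lost without any 1 of the 4 arrays, up to 0.257), and 2 of its 4 tested probe sets were called. None of 25 neuropeptide receptor genes passed.

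**Figure D3:**
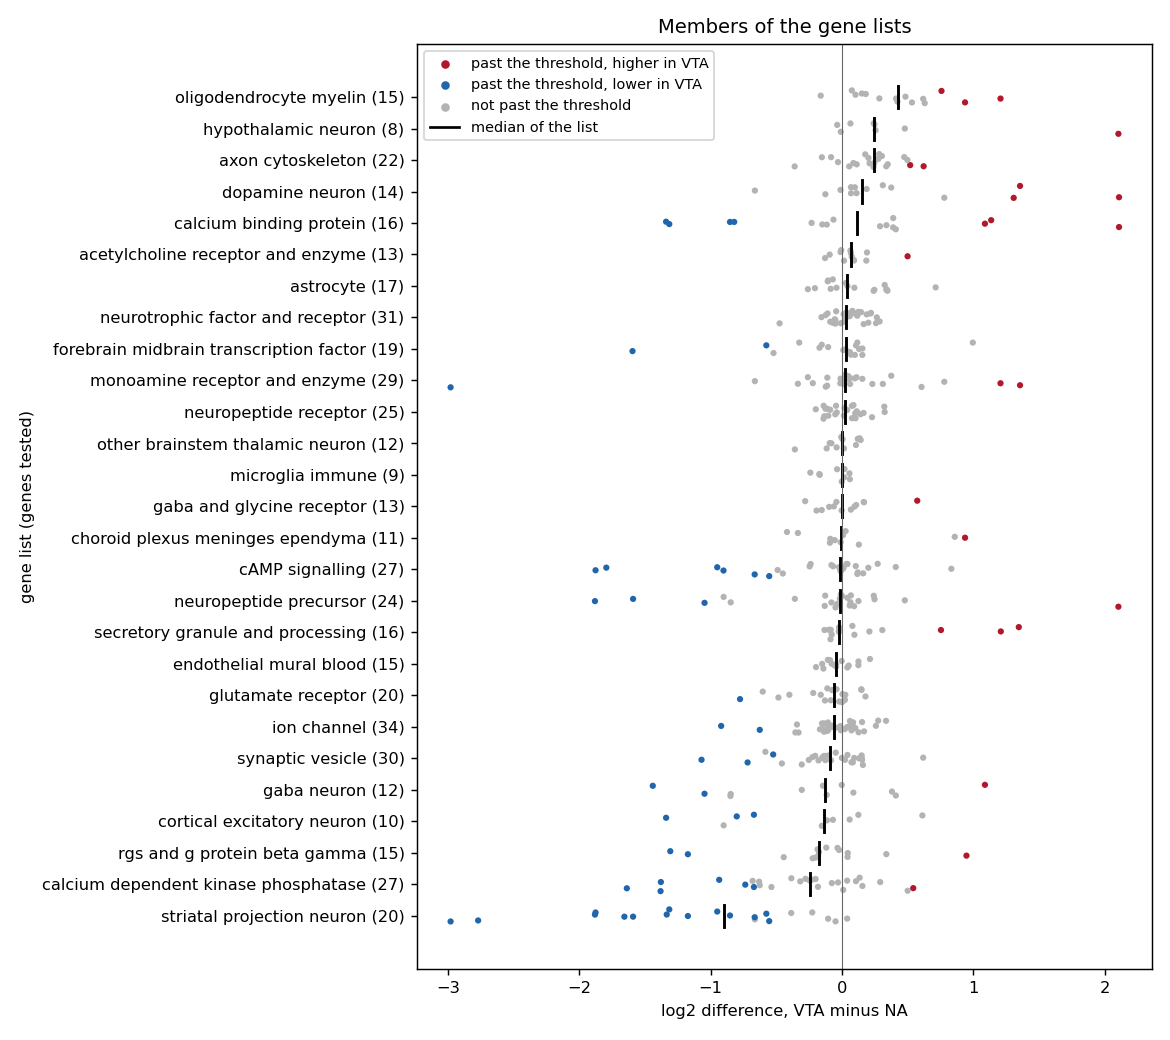
Log2 difference of every tested gene of each list, VTA minus NA (horizontal axis), 1 row a list in order of the median (black line), with the number of genes tested in brackets. Red points are past the threshold and higher in the VTA, blue points lower; the striatal projection neuron list, with 14 of 20 genes called lower and a median of -0.90, lies farthest from 0.

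Of the secretory granule proteins, Resp18, Scg2 and Cadps were higher in the VTA. Resp18, a protein of endocrine and neuronal granules, was at 16381 and 22548 in the VTA, against 6945 and 7873 in the NA, 2.60-fold higher (log2 1.38 ± 0.15, SE, adjusted p = 0.00203, up to 0.0548 without the NA cocaine array). Scg2, the granin secretogranin II, was at 7641 and 12208 in the VTA, against 3895 and 4481 in the NA, 2.31-fold higher (adjusted p = 0.0186, up to 0.204). The call of Scg2 was lost without the VTA saline array, which was the higher of its VTA arrays, and without either NA array. Cadps, which primes granules for release, was 1.69-fold higher at 6594 and 6578 in the VTA, against 3572 and 4274 in the NA (adjusted p = 0.0292, with a call lost without any 1 of the 4 arrays, up to 0.309). These 3 (18.75%) were the calls among 16 tested genes of granules and of peptide processing, with 0 lower and a median of -0.02. Over all genes tested, 1.724% were called higher. Chgb, Cpe and the convertase Pcsk2 had log2 differences of -0.02, -0.09 and -0.08, so most of the processing machinery did not pass.

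Other secreted proteins were among the highest named differences. Agt, the angiotensin precursor made in brain mainly by astrocytes, was at 22323 and 23769 in the VTA, against 7652 and 9637 in the NA, 2.68-fold higher (log2 1.42 ± 0.13, SE, adjusted p = 0.00120). Gpx3, a secreted glutathione peroxidase, was at 12423 and 15458 in the VTA, against 4380 and 4868 in the NA, a log2 difference of 1.59 ± 0.14 (SE, adjusted p = 0.000968). Itih3, a heavy chain that binds hyaluronan, was 2.21-fold higher at 20806 and 19650 in the VTA, against 8296 and 10131 in the NA (adjusted p = 0.00308, with a call lost without either cocaine array, up to 0.0711). Of 17 tested astrocyte genes none passed, and their median log2 difference was 0.04, with summed indices of 351037 and 334373 in the VTA, against 332837 and 317624 in the NA.

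Peptide precursors were examined for those present at both ends of the projection. Of 44 listed precursors, 34 were on the array and 24 had a tested probe set. A precursor counted as present in both where a probe set had an index at or above the array median on all 4 arrays, which is no detection call, and 17 did. A cut at the median admits many probe sets of any kind, and the share over all genes is not given here. The count is therefore no result about peptides. For 8 of the 17, Avp, Edn3, Ghrh, Gnrh1, Nmu, Pdyn, Pnoc and Tac3, every such probe set varied by less than 1.5-fold over all 10 arrays of the series. The flat index of these 8 cannot be told apart from signal that is not their own. Avp and Gnrh1 among them are known from hypothalamic neurons. The other 9, Adcyap1, Cartpt, Cck, Hcrt, Nppa, Penk, Sst, Tac1 and Trh, varied by 1.5-fold or more on at least 1 such probe set. For Nppa this was 1 probe set, at 1.572-fold, with the PFC cocaine array highest at 5168. Its other such probe sets varied by 1.333-fold and 1.202-fold.

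Cartpt, the precursor of the CART peptides, was the clearest case of a peptide at both ends. Its index was 6627 and 10588 in the VTA, against 7116 and 6999 in the NA. The NA arrays lay between the VTA arrays, and the regions did not differ past the threshold (log2 0.25 ± 0.18, SE, adjusted p = 0.695). In the other regions it was 1655 and 2013 in the CPU, 1672 and 1731 in the AMY and 1538 and 1446 in the PFC, so every VTA and NA array lay above every other array. This led to a contrast chosen after these values were seen, the VTA and NA together against the other 3 regions, in which Cartpt is not independent evidence. Cartpt was 4.61-fold higher in the VTA and NA (log2 2.21 ± 0.12, SE, limma adjusted p = 0.000122), with log2 differences of 2.05 to 2.36 over the alternatives and a call in each of them.

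In that contrast 195 of 4894 probe sets were higher in the VTA and NA (3.98%) and 78 lower (1.59%), of which 41 and 15 had all 4 arrays beyond all 6 others. The split depended on scaling, with 93 higher and 75 lower under median scaling and 79 higher and 83 lower under quantile normalization. After Cartpt the named genes with all 4 arrays on 1 side were led by Scg2 at 3.04-fold and Nnat, an imprinted gene of the endoplasmic reticulum in neurons, at 2.82-fold. Scg2 was at 7641 and 12208 in the VTA, 3895 and 4481 in the NA and 3247 and 2632 in the AMY. It was also called higher in the VTA than in the NA. Nnat was at 36143 and 35860 in the VTA and at 25663 and 25926 in the NA, with the other arrays between 5310 and 24703. On the lower side Nrgn led with a log2 difference of -1.72 (adjusted p = 3.53e-05), followed by Sv2b, a vesicle protein, at -1.24 and Camk2n1, an inhibitor of calmodulin kinase II, at -1.16. Nrgn and Sv2b were thus lower in the VTA than in the NA and lower in both than in the other 3 regions. For Sv2b the NA arrays, at 5985 and 6308, lay near the CPU arrays, at 7057 and 7620.

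Other precursors above the median in both regions differed between them to varying degrees, and an index above the median does not show that a precursor is shared. Cck, a peptide of dopamine neurons and of cortical input, was at 8504 and 4161 in the VTA, against 11048 and 11180 in the NA. Both NA arrays were above both VTA arrays, but the VTA arrays lay 2-fold apart and the difference did not pass (log2 -0.90 ± 0.26, SE, adjusted p = 0.113). Cck passed in 2 of the 19 alternatives and not in the rest, with log2 differences from -1.40 to -0.40. Sst, somatostatin of interneurons, was at 3638 and 9413 in the VTA, against 9343 and 11875 in the NA, and its arrays overlapped (adjusted p = 0.293). This Sst probe set passed in 1 of the 19 alternatives, with log2 differences from -1.52 to -0.18 over them. On a further Sst probe set, at 5414 and 8361 in the VTA, against 8621 and 9544 in the NA, the arrays did not overlap (log2 -0.43, adjusted p = 0.229). Adcyap1, the precursor of PACAP, was at 4489 and 3538 in the VTA, against 2501 and 2915 in the NA on 1 probe set (log2 0.56, adjusted p = 0.223), and overlapped on another. A dim Adcyap1 probe set, not tested, was at 1452 and 1672 in the VTA, against 291 and 246 in the NA, where both values lie below the floor. On the CPU arrays that probe set was at 238 and 214. Trh was at 2847 and 3748 in the VTA, against 2366 and 2581 in the NA (log2 0.40, adjusted p = 0.395). Npy, which was not above the median on every array, was 2.07-fold lower at 2244 and 3256 in the VTA, against 5404 and 5775 in the NA (adjusted p = 0.0124, with a call lost without the VTA cocaine array or either NA array, up to 0.160). Over the 24 tested precursors, 1 (4.167%) was called higher and 3 (12.5%) lower, with a median of -0.01. The shares over all genes tested were 1.724% higher and 2.226% lower.

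The higher precursor was Hcrt, from which the orexins are made by neurons of the lateral hypothalamus. Hcrt was at 6808 and 23627 in the VTA, against 2825 and 3079 in the NA, so the saline VTA array held over 3-fold the index of the cocaine one. The NA values lay within those of the CPU, AMY and PFC arrays, 2738 to 3620, so presence of Hcrt in the NA is not shown. The fitted difference was 4.30-fold (log2 2.10 ± 0.43, SE, adjusted p = 0.0342), with 1.22 without the VTA saline array and 2.99 without the VTA cocaine array. Its call was lost without either NA array, where the adjusted p reached 0.308, with zeros raised to the floor and with no filter on dim probe sets. Of 8 tested genes of the hypothalamic neuron list, Hcrt was the 1 called higher (12.5%), against 1.724% of all genes tested. The median of the list was 0.24. Its summed index was 32043 and 54349 in the VTA, against 27684 and 27328 in the NA. Pmch, made by neurons next to the orexin cells, was listed at 0 on both VTA arrays, and Gal and Oxt were listed at 0 on the VTA saline array. The part of hypothalamic tissue in the result for Hcrt, Resp18 or Scg2 was not tested.

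Of the axon and myelin lists, 9.091% and 20% of the tested genes were called higher, against 1.724% of all genes tested. Over all 3190 genes tested, 1834 had a positive log2 difference. Of 22 cytoskeletal genes of axons, 18 had a positive log2 difference and 2 were called higher, Basp1 and Prph, with a median of 0.24. Basp1, a growth cone protein, was at 10434 and 10339 in the VTA, against 6576 and 6934 in the NA, 1.54-fold higher (adjusted p = 0.0156). Prph, an intermediate filament of neurons with long axons, was 1.43-fold higher at 3105 and 2869 in the VTA, against 2178 and 1993 in the NA (adjusted p = 0.0302). Both calls were lost without any 1 of the 4 arrays, where the count for the list was 0. Of 15 myelin genes 14 had a positive difference and 3 were called higher, Qdpr, Enpp2 and Cryab, with a median of 0.42. The call of Cryab, a small heat shock protein, was lost without any 1 of the 4 arrays (adjusted p up to 0.375). The median ran from 0.31 to 0.58 over the alternatives, and no myelin gene was called without any 1 of the 4 arrays. Enpp2, or autotaxin, was at 7144 and 6960 in the VTA, against 3625 and 3744 in the NA, 1.91-fold higher (adjusted p = 0.0289, up to 0.308 without the NA saline array). Mobp, a protein of compact myelin, was at 31410 and 25424 in the VTA, against 18866 and 17978 in the NA (adjusted p = 0.108). The summed index of the myelin list was 195762 and 177405 in the VTA, against 143256 and 145865 in the NA, and its part in the calls of Qdpr, Enpp2 and Cryab, which are genes of that list, was not tested.

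Among markers of other cells, no gene was called of 9 of microglia, of 15 of vessels and blood, or of 12 of other brainstem and thalamic neurons. Their median log2 differences were -0.0020, -0.045 and -0.0011 in that order. Of 10 genes of cortical excitatory neurons, Nrgn, Olfm1 and Itpka (30%) were called lower in the VTA, against 2.226% of all genes tested. None was called higher, and Nrgn is also expressed in striatum. The call of Olfm1 was lost without any 1 of the 4 arrays (adjusted p up to 0.171) and that of Itpka without the VTA saline array or either NA array (up to 0.153). In the list of choroid plexus, meninges and ependyma, Enpp2 was the 1 called higher of 11 (9.091%), against 1.724% of all genes tested. Ttr, abundant in choroid plexus, was at 2310 and 4431 in the VTA, against 1832 and 1700 in the NA (adjusted p = 0.428).

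The region difference was also set out for each treatment. All 224 calls had the same sign in both treatments. This had to be so, since both VTA arrays lay on the same side of both NA arrays in every call. It is no separate evidence that the treatments agree. On the cocaine arrays the VTA and NA differed by at least 1.5-fold in 377 probe sets, 224 of them higher in the VTA, and on the saline arrays in 287, 140 of them higher. These counts hold any offset between whole arrays. The median log2 difference of all probe sets tested was 0.068 without the VTA saline array and -0.0018 without the VTA cocaine array. Among the 224 calls, 6 differed by at least 1.5-fold between the VTA cocaine and saline arrays and none between the NA arrays. The 6 were Hcrt, Gad1, Scg2, both tested probe sets of Gda and a probe set with no symbol, all lower on the cocaine array. With 1 array a treatment these are values with no test.

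**Figure D4:**
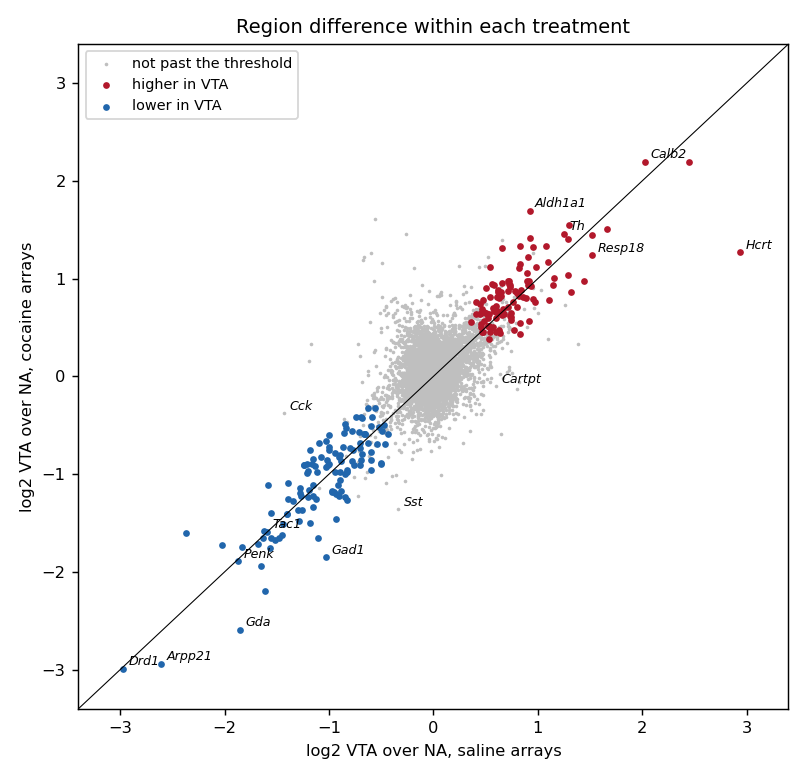
Log2 ratio of VTA over NA on the cocaine arrays (vertical axis) against the saline arrays (horizontal axis) for the 5130 probe sets tested, with the line of equality. Red and blue points are those past the threshold, all of which have the same sign on both axes; Hcrt and Gad1 lie off the line, and Cartpt, Cck and Sst are among the grey points off the line.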

How the data were processed

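The analysed values are linear intensities, computed by the authors as expression indices with dChip, per the labels. Its version, model and scaling between arrays stay unknown here. Of 8799 probe sets, 59 controls were left out, and 7006 of the other 8740 had 1 gene symbol, 308 several and 1426 none. Only single symbols are named, and 6985 of them, all unchanged, were in the current rat gene table.

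Zeros were treated as missing, indices under the 20th percentile of values above 0 (1028) were raised to it, and log2 was taken with no further normalization. A probe set was tested if its mean index was in the upper 60% and it had a value on all 4 VTA and NA arrays, which left out 3496 dim ones and 114 with a zero. One limma 3.58.1 fit in R 4.3.3 held all 10 arrays, with region and treatment as terms, 4 residual degrees of freedom and an intensity trend. For 236 tested probe sets with a zero in another region, that array drops out. The Benjamini-Hochberg adjustment covered all tested probe sets, and each adjusted p comes from this limma fit. The fit was tested on simulated data.

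The members, gene lists and rules were chosen with earlier results of these data known. The brightest tested probe set represented a gene in a list. Named genes were the 12 highest and 12 lowest called genes whose arrays do not overlap, up to 4 called genes a list in each direction, the precursors present in both regions, the markers Th, Calb2, Drd1 and Cartpt, and the dopamine receptors and genes of dopamine synthesis and transport. Others were chosen after their values were seen. Alternatives covered zeros, floor, filter, scaling, arrays in the fit, the treatment term, the trend and each array left out. The number of arrays limits precision.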

Additional observations from a re-analysis of the deposited data

Results flagged for a closer look

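For 15 of the named probe sets that were tested, the VTA array lay above the NA array in one treatment and below it in the other. None of these differences was tested, since each treatment had 1 array a region. The largest was Cartpt, where the log2 ratio of VTA over NA was -0.10 on the cocaine arrays and 0.60 on the saline arrays, a difference of -0.6999. Gch1 followed with 0.42 on the cocaine arrays and -0.20 on the saline arrays, a difference of 0.6161. Among the dopamine receptors, the differences between the treatments were 0.3863 and 0.02351 for the tested probe sets of Drd3 and 0.1316 for Drd5. Among the precursors above the array median in both regions, they were -0.3298 for Avp, -0.3104 and -0.1801 for Pnoc, -0.2827 and 0.187 for Nppa, -0.184 for Gnrh1, -0.1562 for Adcyap1, 0.07868 for Ghrh, 0.2044 for Pdyn and 0.2448 for Edn3.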

How the results depend on the processing

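The count of 224 calls was 147 with zeros raised to the floor, 112 with no filter on dim probe sets, 462 without the amygdala arrays, 381 with the VTA and NA arrays alone and 491 with these alone and no treatment term. The cause was not tested, beyond the larger number of probe sets tested without the filter. Leaving out 1 of the 4 arrays gave 36 to 93 calls, and 35 to 67 with a fold of at least 2, against 81 with all arrays and 52 with no filter. In these fits the lone array of a region is assumed to vary like the other regions. Under quantile normalization 180 calls were made, 68 higher and 112 lower. Median scaling, other floors, a stricter filter, no intensity trend, and leaving out the prefrontal arrays or, as chosen after seeing the data, the prefrontal cocaine array alone moved the count by under 1.5 times. Of the 89 fitted named probe sets none turned a called direction in 19 settings. Of the 59 called, 16 were lost only when a VTA or NA array was left out and 25 in at least 1 other setting. For the VTA and NA against the other 3 regions, with alternatives chosen after seeing the data, 273 calls became 146 with zeros raised to the floor, 79 with no filter, 168 under median scaling, 162 under quantile normalization, 651 without the amygdala arrays, 150 without the prefrontal arrays and 58 to 103 without 1 VTA or NA array. It could not be run with the VTA and NA arrays alone. The treatment term pairs the arrays, and without it the fit of all arrays made 269 calls. With no detection calls, a dim index cannot be told from background.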

Other observations

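Some genes of antioxidant defence, sterol synthesis and the proteasome were higher in the VTA, though most of those tested did not pass. These 3 lists were written after the values were seen and get no test. Of all 3190 genes tested, 1834 had a positive difference and 55 (1.724%) were called higher. Of 31 tested genes of antioxidant defence and glutathione metabolism, 27 had a positive log2 difference and 8 were called higher, with a median of 0.24. Prdx1, a peroxiredoxin that removes hydrogen peroxide, was at 7799 and 8518 on the VTA cocaine and saline arrays, against 4604 and 4330 on the NA arrays. Sod1, the cytosolic superoxide dismutase, was at 21442 and 22422 in the VTA, against 13649 and 14597 in the NA. Gstp1, a glutathione transferase, was at 13083 and 13134 in the VTA, against 7728 and 7737 in the NA. The other calls were Gpx3, Prdx6, Cat, Gstm5 and Mgst1. Without 1 of the 4 arrays 1 or 2 genes of the list were called, with medians of 0.11 to 0.36. Of 13 genes of sterol synthesis, 11 had a positive difference and Idi1, Fdps, Fdft1 and Insig1 were called, with a median of 0.54. Insig1, which restrains sterol synthesis, was at 6002 and 4809 in the VTA, against 3045 and 2932 in the NA. Without 1 of the 4 arrays 0 to 2 genes of the list were called, and the median was 0.41 to 0.58. Of 25 proteasome subunits, 24 had a positive difference, Psmb5 and Psmc2 were called and the median was 0.28, with 0 calls under quantile normalization and without 1 of the 4 arrays. The median was 0.42 for myelin genes and 0.03 for all genes tested, and the part of myelin in these lists was not tested.

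Other genes lower in the VTA were also chosen after their values were seen. Homer1, a scaffold of metabotropic glutamate receptors, had 3 probe sets called lower, at log2 differences of -1.10 to -1.32. Gucy1a1 and Gucy1b1, the subunits of soluble guanylyl cyclase, which senses nitric oxide, were called lower at -1.57 and -1.07.

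Lists of other neuronal genes were also chosen with earlier results known. Over all 3190 genes tested, 1.724% were called higher and 2.226% lower. Of 34 ion channel genes, 0 were higher and 2 lower, Kcnab1 and Cacnb3, with a median of -0.06 and adjusted p up to 0.103 for Kcnab1 and 0.884 for Cacnb3 over the alternatives. The fit of Cacnb3 lacked 1 array of another region that was listed at 0. Of 31 neurotrophic factors and their receptors none passed in limma, with a median of 0.03. Of 29 monoamine receptors and enzymes, 2 were higher and 1 lower, with a median of 0.03, and these were Th, Qdpr and Drd1. Of 19 transcription factors of forebrain and midbrain, Egr1 and Rxrg were lower and 0 higher, with a median of 0.03. Rxrg was called on 1 of 3 tested probe sets and lost without any 1 of the 4 arrays (adjusted p up to 0.252). Of 15 regulators and beta or gamma subunits of G proteins, Gnb1 was higher and Gng7 and Rgs9 lower, with a median of -0.18. Gnb1 was called on 1 of 3 tested probe sets and lost in 7 alternatives, among them each fit without 1 of the 4 arrays (adjusted p up to 0.297). Of 12 GABA neuron genes, Calb1 was higher and Gad1 and Npy lower, with a median of -0.13. Of 13 acetylcholine receptors and enzymes, Ache, which breaks down acetylcholine, was the 1 called, higher in the VTA, with a median of 0.07. It was called on 1 of 3 tested probe sets, another had a log2 difference of -0.04, and the call was lost in 7 alternatives (adjusted p up to 0.363). Of 13 GABA and glycine receptor genes Gabbr2 was the 1 called, with a median of -0.0027.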
